A study of Mus musculus with 24 samples.

Results

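Astrocytes are the glial cells that take up released glutamate, buffer water and ions, and supply neurons with metabolites. They spread through the mouse cortex during the first postnatal weeks, and their marker genes are still being switched on at that time. The genes described here are 10 widely used astrocyte markers. Slc1a2 and Slc1a3 encode the glutamate transporters GLT-1 and GLAST. Gja1 encodes the main connexin of astrocyte gap junctions, Aqp4 the water channel of the perivascular endfeet, and Mlc1 a membrane protein of astrocyte contacts that is mutated in megalencephalic leukoencephalopathy with subcortical cysts. Fgfr3 encodes a fibroblast growth factor receptor and Ntsr2 a neurotensin receptor. Aldoc encodes the brain form of the glycolytic enzyme aldolase, Aldh1l1 a folate-metabolising dehydrogenase, and Gfap the intermediate filament protein of astrocytes. They were taken as all probe sets whose single gene symbol in the array's annotation is 1 of these 10. This gave 31 probe sets of the 45037 on the array, and 10 genes of the 18193 that have a probe set with a single symbol. By the RefSeq annotation of build GRCm38.p6, Slc1a2 lies on chromosome 2, Fgfr3 on 5, Aldh1l1 on 6, Gja1 on 10, Aldoc and Gfap on 11, Ntsr2 on 12, Slc1a3 and Mlc1 on 15 and Aqp4 on 18. Unless a probe set is named, a gene's value is that of its probe set with the highest mean over the 24 arrays.

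The arrays were Affymetrix Mouse 430 2.0 chips, on which a set of short probes reports each transcript. All mice were FVB males at postnatal day 7, and cortex was dissected free of white matter and lysed with cycloheximide, which holds ribosomes on mRNA. Fmr1 KO mice lack the RNA-binding protein FMRP, whose loss causes fragile X syndrome, in every cell, and WT mice are their littermates. Each lysate was cleared of nuclei and debris and came from a pool of 2 mice. The 4 groups were Fmr1 KO polyribosomal, WT polyribosomal, Fmr1 KO total and WT total RNA, with 6 arrays each. Polyribosomal RNA was taken from fractions 10 to 13 of a 20% to 50% sucrose gradient cut into 16, where an mRNA carries at least 6 ribosomes. Total RNA was the 20% of the cleared lysate kept back from the gradient. Arrays of 1 genotype with the same replicate number were taken as the same lysate.

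Between 38.8% and 40.0% of the probe sets on an array reached a log2 value of 4, used here as the limit below which a probe set is dim. Of the 31 probe sets, 24 reached the limit on at least 6 of the arrays of a comparison and were tested. The other 7 averaged at most 3.40 on the log2 scale and were not tested. Fmr1 itself was lower in Fmr1 KO arrays at each of its 3 probe sets, and its brightest ranged over 5.41 to 6.60 in Fmr1 KO polyribosomal RNA and 9.63 to 10.27 in WT polyribosomal RNA. In total RNA it ranged over 6.16 to 6.62 in Fmr1 KO and 9.41 to 9.93 in WT. The cortical label held against markers: 8 of 8 measured genes of cortical excitatory neurons reached the limit, and 10 of 13 measured markers of other brain regions stayed under it on all arrays. Tcf7l2, Hoxa5 and Cbln1 of the latter reached it. Of 13 measured genes of meninges and choroid plexus, 5 reached it and 6 stayed under it on all arrays. Among them Ttr averaged 7.42 in Fmr1 KO and 9.78 in WT polyribosomal RNA, a difference of -2.35 with an SE of 1.95, not called. All 10 astrocyte genes reached the limit, with Ntsr2 the only one close to it. The microglial list had 7 of 11 measured genes under the limit on all arrays, and the endothelial and pericyte list 7 of 12.

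Between arrays of the same group the astrocyte genes moved together. With group means removed, each gene was set against the mean of the other members over the 24 arrays, as a description, since the points share each array's RNA and its normalization. Pearson's r was 0.866 for Slc1a3, 0.845 for Gja1, 0.843 for Slc1a2, 0.837 for Mlc1 and 0.805 for Fgfr3. It was 0.693 for Aldh1l1, 0.685 for Aldoc and 0.552 for Ntsr2. Gfap at 0.413 and Aqp4 at 0.374 followed the rest least.

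The mean over the 10 genes shows how large this shared movement was. In polyribosomal RNA it was 8.64 ± 0.22 on the log2 scale in Fmr1 KO and 8.79 ± 0.25 in WT (SD, n = 6 each). In total RNA it was 8.32 ± 0.20 in Fmr1 KO and 8.40 ± 0.18 in WT (SD, n = 6 each). WT total arrays 1 to 3 lay at 8.51 to 8.59 and arrays 4 to 6 at 8.17 to 8.29. Among Fmr1 KO total arrays, 5 and 6 were lowest, at 8.09 and 8.18, followed by array 1 at 8.24. The labels do not say whether the replicate number marks a batch, and this was not tested. Correlations between arrays of 1 number are given with the processing. Polyribosomal array 5 of Fmr1 KO had the lowest mean of its group, at 8.28 with the other 5 at 8.56 to 8.92, and 10 of the 10 genes lay below their group mean there. Polyribosomal array 4 of WT was likewise lowest, at 8.37 with the others at 8.64 to 9.02, and 9 of 10 genes lay below. These arrays also had the lowest median correlation with the others of their group over all probe sets, 0.993 for each. The cause of the low values on these arrays was not tested. In bulk cortex, fewer astrocytes and less RNA per astrocyte cannot be told apart, nor can either be told from a difference of the whole array.

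**Figure D1:**
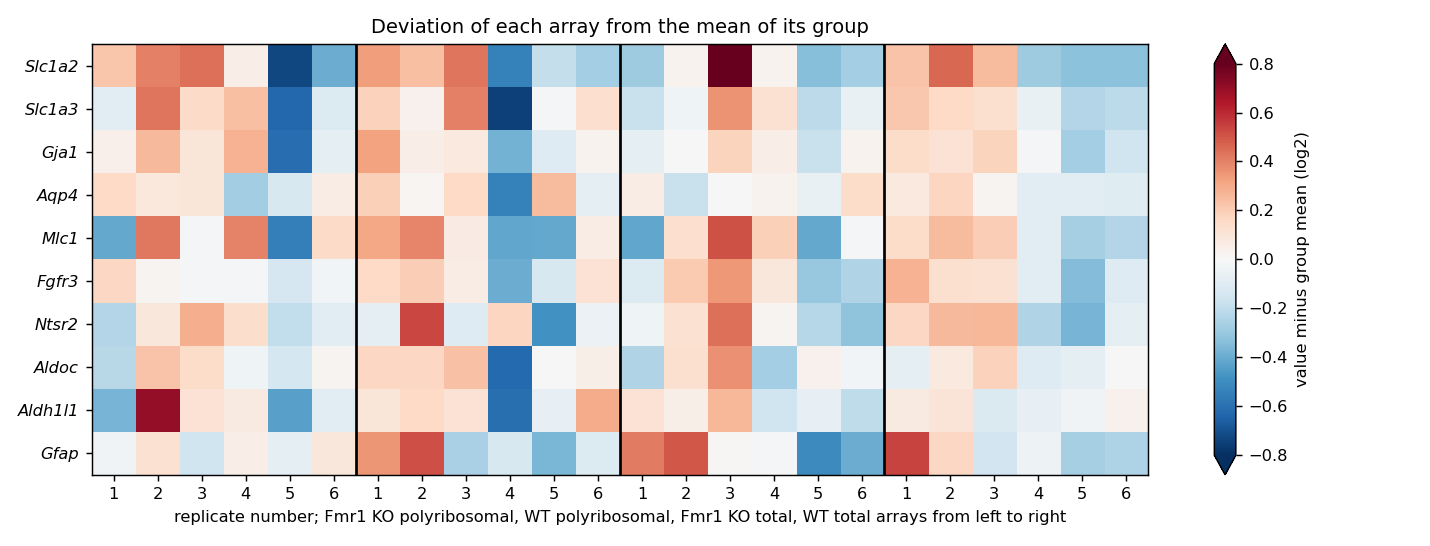
Log2 value minus the mean of its group (colour, in log2 units) for each astrocyte gene (rows) on each of the 24 arrays (columns, 6 per group, Fmr1 KO polyribosomal at the left, then WT polyribosomal, Fmr1 KO total and WT total). Some columns share a colour, with Fmr1 KO polyribosomal array 5 and WT polyribosomal array 4 blue and Fmr1 KO total array 3 red for nearly all genes. Other columns are split between colours, and the Gfap row departs from the others.

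Other cell types were followed in the same way. The mean of 55 further astrocyte genes correlated with the mean of the 10 genes at r = 0.937, that of 8 neuronal genes at 0.825 and that of 8 genes of the oligodendrocyte lineage at 0.826. The list of 8 excitatory cortical neuron genes stood at 0.162, and 5 radial glia and progenitor genes at -0.44. Of these 5, Sox2, Hes5 and Fabp7 are also in the further astrocyte list, so the lists are not separate. On Fmr1 KO polyribosomal array 5 the neuronal list averaged 11.69 (others 11.90 to 12.04) and the oligodendrocyte list, here over all its 11 genes with a probe set, dim ones included, averaged 6.25 (others 6.36 to 6.77). The further astrocyte list, over its 59 genes with a probe set, averaged 6.69 (others 6.86 to 7.10), so these 3 lists were at their lowest there too. On WT polyribosomal array 4 none of the 3 was at its lowest: the neuronal list averaged 11.91 (others 11.89 to 12.12), the oligodendrocyte list 6.52 (others 6.33 to 6.89) and the further astrocyte list 6.84 (others 6.83 to 7.17). Other lists were at their lowest on this array. Glutamate handling genes averaged 7.91 (others 8.04 to 8.33) and gap junction and endfoot genes 6.51 (others 6.65 to 6.80). Relatives of the 10 genes averaged 5.56 (others 5.63 to 5.78). The FGF pathway list was at its highest there, at 6.94 (others 6.81 to 6.92). The part of these other cell types in the movement of the astrocyte genes was not tested.

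Of 9945 other genes above the dim limit, 2.33% had r over 0.8 with the mean of the 10 genes. The 5 most like it over the 24 arrays were Clstn1 at r = 0.962, Abca3 at 0.946, Bcas1 at 0.937, Cx3cl1 at 0.934 and Vmp1 at 0.932. Clstn1 encodes a neuronal calsyntenin, Cx3cl1 the neuronal chemokine fractalkine, and Bcas1 a protein of early myelinating oligodendrocytes. None of the 5 is in the astrocyte lists used here.

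The promoters of the 3 genes that followed the others most closely, Slc1a3, Gja1 and Slc1a2, are printed because they moved together between arrays and encode the glutamate uptake and coupling functions of astrocytes. They are RefSeq sequences of build GRCm38.p6, the 250 bases before the annotated start, read 5′ to 3′ on the gene's strand. Capitals mark matches, on either strand, to 6 motifs: the GC box GGGCGG, the CCAAT box CCAAT, the TATA box TATAAA, the E-box CACGTG, the AP-1 site TGACTCA and the STAT site TTCCNGGAA. Slc1a3 lies at chr15:8710808-8711057 on the minus strand, Gja1 at chr10:56377050-56377299 on the plus strand and Slc1a2 at chr2:102706188-102706437 on the plus strand.
Slc1a3: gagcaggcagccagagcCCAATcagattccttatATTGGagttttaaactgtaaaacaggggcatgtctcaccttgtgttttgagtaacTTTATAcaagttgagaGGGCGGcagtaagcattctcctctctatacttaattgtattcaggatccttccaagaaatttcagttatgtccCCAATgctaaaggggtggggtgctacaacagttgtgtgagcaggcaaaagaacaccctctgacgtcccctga
Gja1: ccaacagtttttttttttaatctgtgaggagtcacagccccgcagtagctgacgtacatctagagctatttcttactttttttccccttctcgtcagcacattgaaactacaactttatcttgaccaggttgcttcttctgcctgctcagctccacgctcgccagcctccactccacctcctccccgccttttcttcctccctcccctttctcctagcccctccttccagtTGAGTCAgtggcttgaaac
Slc1a2: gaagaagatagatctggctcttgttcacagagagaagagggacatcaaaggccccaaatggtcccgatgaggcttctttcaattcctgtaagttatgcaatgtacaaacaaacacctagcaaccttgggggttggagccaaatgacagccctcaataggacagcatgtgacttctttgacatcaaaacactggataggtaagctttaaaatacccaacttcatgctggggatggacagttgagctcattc
The Slc1a3 window held 3 matches to the CCAAT box, 1 to the TATA box and 1 to the GC box, the Gja1 window held 1 AP-1 match close to the start, and these letters were not found in the Slc1a2 window. RefSeq windows were matched for 9 of the 10 genes, 11 windows in all. Among these the CCAAT box was found in 4 windows, of 4 genes (Aldh1l1, Slc1a3, Mlc1 and Fgfr3). The GC box was found in 5 windows, of 4 genes (Aldh1l1, Slc1a3, Fgfr3 and Aldoc). Of all 32851 windows of this length, 33.8% held the CCAAT box and 32.7% the GC box. The AP-1 match of Gja1 occurs in 4.46% of all windows, the TATA match of Slc1a3 in 12.4%, the STAT match of Aldoc in 0.913% and the E-box match of Ntsr2 in 6.02%. No motif was shared by all the genes, and a match is a description of letters only.

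The first comparison asked how much of each astrocyte mRNA sat on heavy polyribosomes relative to the lysate it came from. At their brightest probe sets Mlc1, Fgfr3, Aldoc and Aqp4 were higher in polyribosomal than in total RNA in both genotypes, Mlc1 and Fgfr3 by more than 1 log2 unit. Other probe sets of Aqp4 were lower, as given below. Gfap was lower in WT polyribosomal RNA. The glutamate transporters, Gja1, Aldh1l1 and Ntsr2 passed in neither genotype. In Fmr1 KO this made 4 genes higher, 0 lower and 6 not called, and in WT 4 higher, 1 lower and 5 not called (limma adjusted p under 0.05). Polyribosomal and total RNA differ for much of the transcriptome: 38.7% of all genes tested were called higher and 28.2% lower in Fmr1 KO, and 37.5% and 28.4% in WT. The count of 4 of 10 is thus close to the background. The median difference of the 10 genes was 0.08 in Fmr1 KO (all genes 0.09) and 0.24 in WT (all genes 0.09), and with 1 replicate number left out it ran over 0.05 to 0.19 in Fmr1 KO and 0.20 to 0.34 in WT.

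**Figure D2:**
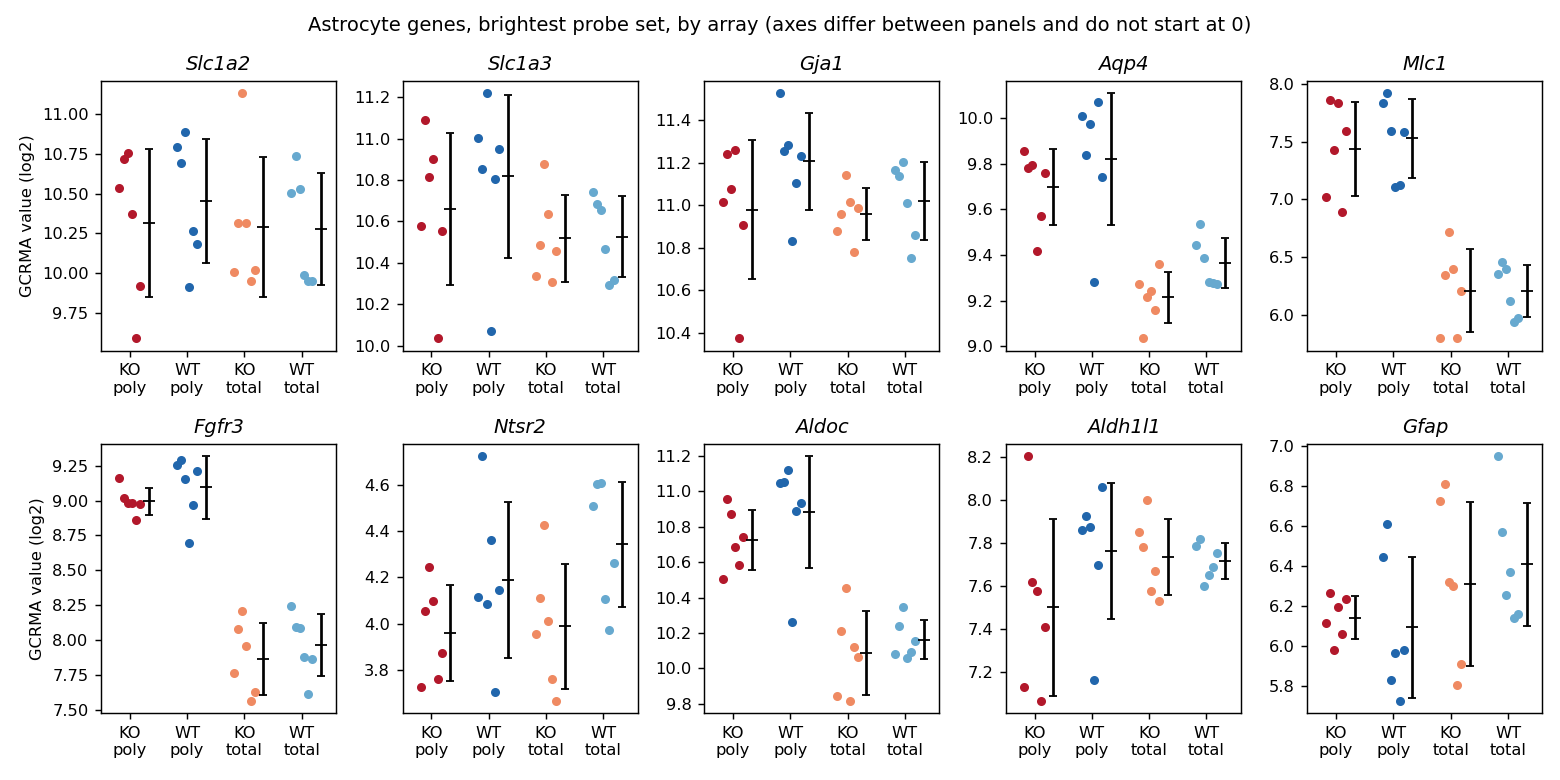
GCRMA log2 value of the brightest probe set of each astrocyte gene (1 panel per gene, vertical axes differ and do not start at 0) on each array, in the order Fmr1 KO polyribosomal, WT polyribosomal, Fmr1 KO total, WT total; bars give the mean ± SD of 6 arrays. Polyribosomal points lie clear of total points for Mlc1 and Fgfr3, while Fmr1 KO and WT points overlap in all 10 panels.

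Mlc1 had the largest difference of the 10 genes in both genotypes. Its log2 values (lowest, median, highest) were 6.89, 7.51 and 7.86 in Fmr1 KO polyribosomal RNA, against 5.79, 6.27 and 6.72 in Fmr1 KO total RNA. In WT they were 7.11, 7.59 and 7.92 in polyribosomal RNA, against 5.94, 6.23 and 6.46 in total RNA. No polyribosomal array fell into the range of the total arrays of its genotype. The difference was 1.23 (SE 0.11, adjusted p = 2.14e-06) in Fmr1 KO, a 2.34-fold difference, and 1.32 (SE 0.10, adjusted p = 7.53e-07) in WT, 2.50-fold, and it was positive in 6 of 6 lysates of each genotype.

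Fgfr3 was nearly as far apart. Its values were 8.86, 8.98 and 9.16 in Fmr1 KO polyribosomal RNA, against 7.56, 7.86 and 8.21 in Fmr1 KO total RNA. In WT they were 8.70, 9.18 and 9.29 in polyribosomal RNA, against 7.62, 7.98 and 8.24 in total RNA. Again the arrays did not overlap, and the difference was 1.13 in both genotypes (SE 0.10, adjusted p = 2.20e-06 in Fmr1 KO, and SE 0.09, adjusted p = 1.66e-06 in WT). Of the 2 related receptor genes measured, Fgfr1 was higher by 0.96 in Fmr1 KO and by 0.74 in WT. Fgfr2 had 0.23 in Fmr1 KO (adjusted p = 0.0745) and was higher by 0.28 in WT. The neurotensin receptor Ntsr2, at the dim limit with means of 3.96 to 4.34 in the 4 groups, had -0.03 in Fmr1 KO and -0.15 in WT, neither called. Its relative Ntsr1 was higher by 0.29 in Fmr1 KO (adjusted p = 0.0498) and by 0.44 in WT (adjusted p = 0.00107).

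Among the metabolic enzymes Aldoc was higher and Aldh1l1 was not called. Aldoc stood at 10.50, 10.72 and 10.95 in Fmr1 KO polyribosomal RNA, against 9.82, 10.09 and 10.45 in Fmr1 KO total RNA. In WT it stood at 10.27, 10.99 and 11.12 in polyribosomal RNA, against 10.06, 10.12 and 10.35 in total RNA. The groups were apart in Fmr1 KO and overlapped in WT through polyribosomal array 4, the lowest of its group. The difference was 0.64 (SE 0.08, adjusted p = 4.79e-05) in Fmr1 KO and 0.72 (SE 0.10, adjusted p = 9.72e-05) in WT, positive in 6 of 6 lysates of each. Aldoa, the aldolase gene of most tissues, was lower in polyribosomal RNA by contrast, with -0.77 in Fmr1 KO and -0.69 in WT. Aldh1l1 ranged over 7.06 to 8.21 in Fmr1 KO polyribosomal and 7.53 to 8.00 in Fmr1 KO total RNA, and over 7.16 to 8.06 in WT polyribosomal and 7.60 to 7.82 in WT total RNA. Its differences were -0.23 in Fmr1 KO, negative in 5 of 6 lysates, and 0.05 in WT, positive in 5 of 6. Its mitochondrial relative Aldh1l2 was not called either, with -0.19 in Fmr1 KO and -0.08 in WT. Without replicate 2 the Fmr1 KO value of Aldh1l1 was -0.37 and passed (adjusted p = 0.0172).

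Aqp4 was the fourth gene called higher at its brightest probe set. The values were 9.42, 9.77 and 9.86 in Fmr1 KO polyribosomal RNA, against 9.03, 9.23 and 9.36 in Fmr1 KO total RNA. In WT they were 9.28, 9.91 and 10.07 in polyribosomal RNA, against 9.27, 9.33 and 9.54 in total RNA. Only the Fmr1 KO arrays were fully apart. The difference was 0.48 (SE 0.09, adjusted p = 0.000556) in Fmr1 KO and 0.45 (SE 0.11, adjusted p = 0.00276) in WT, and it ran over 0.17 to 0.75 between Fmr1 KO lysates and 0.00 to 0.79 between WT lysates. Over the 10 genes, the arrays of polyribosomal and total RNA did not overlap for 4 genes in Fmr1 KO (Mlc1, Fgfr3, Aldoc and Aqp4) and for 2 in WT (Mlc1 and Fgfr3), where 24.1% and 21.8% of all genes tested were apart in this direction. None was apart in the lower direction, where 18.1% of all genes were in Fmr1 KO and 18.3% in WT.

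**Figure D3:**
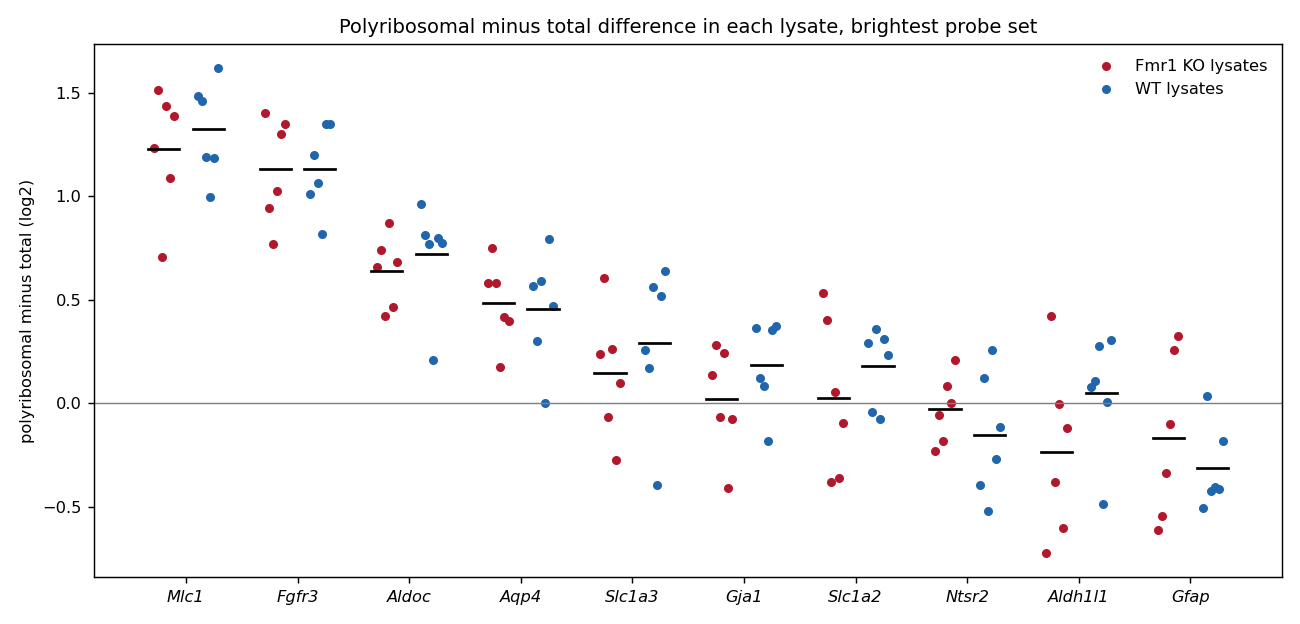
Polyribosomal minus total log2 difference in each lysate (points, Fmr1 KO left of WT for each gene) at the brightest probe set of each astrocyte gene; black lines give the mean of 6 lysates. Mlc1, Fgfr3 and Aldoc lie above 0 in every lysate of both genotypes. So does Aqp4, with its lowest WT lysate barely above 0, at 0.0009. The 6 genes from Slc1a3 to Gfap have lysates on both sides of 0.

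Gfap, the most used marker of mature and reactive astrocytes, was the only one of the 10 called lower at its brightest probe set. Its values were 5.98, 6.15 and 6.27 in Fmr1 KO polyribosomal RNA, against 5.80, 6.31 and 6.81 in Fmr1 KO total RNA. In WT they were 5.72, 5.97 and 6.61 in polyribosomal RNA, against 6.14, 6.31 and 6.95 in total RNA. The groups overlapped in both genotypes. The difference was -0.17 (SE 0.13, adjusted p = 0.267) in Fmr1 KO and -0.32 (SE 0.09, adjusted p = 0.0110) in WT, negative in 4 of 6 Fmr1 KO and 5 of 6 WT lysates. The WT call was lost when the lysate was not used as a block (adjusted p = 0.110). Vim, the intermediate filament gene of immature astrocytes and radial glia, had 0.00 in Fmr1 KO and 0.21 in WT, neither called.

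The glutamate transporters were not called between the 2 RNA kinds. Slc1a3 ranged over 10.03 to 11.09 in Fmr1 KO polyribosomal and 10.31 to 10.88 in Fmr1 KO total RNA, and over 10.07 to 11.22 in WT polyribosomal and 10.29 to 10.74 in WT total RNA. Slc1a2 ranged over 9.59 to 10.75 in Fmr1 KO polyribosomal and 9.95 to 11.13 in Fmr1 KO total RNA, and over 9.91 to 10.89 in WT polyribosomal and 9.95 to 10.73 in WT total RNA. For both genes the polyribosomal arrays reached lower and, in WT, higher than the total arrays. Slc1a3 had a difference of 0.14 (95% interval -0.09 to 0.38) in Fmr1 KO and 0.29 (95% interval 0.01 to 0.57, adjusted p = 0.0634) in WT. Slc1a2 had 0.02 (95% interval -0.25 to 0.30) in Fmr1 KO and 0.18 (95% interval -0.02 to 0.38) in WT. The neuronal glutamate transporter gene Slc1a1 was lower in polyribosomal RNA, with -0.65 in Fmr1 KO and -0.37 in WT, and Slc1a6 was higher in WT at 0.31 but not called in Fmr1 KO, at 0.13.

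Gja1, the connexin gene, gave values like those of the transporters. It ranged over 10.37 to 11.26 in Fmr1 KO polyribosomal and 10.78 to 11.14 in Fmr1 KO total RNA, and over 10.83 to 11.53 in WT polyribosomal and 10.75 to 11.20 in WT total RNA. The difference was 0.02 (95% interval -0.20 to 0.24) in Fmr1 KO and 0.19 (95% interval -0.02 to 0.40) in WT. Its astrocytic partner Gjb6, another connexin gene, was higher in polyribosomal RNA by 0.40 in Fmr1 KO and by 0.34 in WT. The WT values of Slc1a2, Slc1a3 and Gja1 turned on lysate 4: without it they were 0.23, 0.43 and 0.26 and all passed, which made 7 WT genes higher in place of 4. Leaving out any other replicate number kept the WT count at 4.

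Several of these genes have probe sets that gave opposite answers. Different probe sets of a gene can report different ends or forms of its mRNA, and their positions on the transcripts are not given in the files used here. Over the 24 tested probe sets, 7 were higher and 4 lower in Fmr1 KO polyribosomal RNA, and 9 higher and 5 lower in WT. Over all probe sets tested, 37.2% were higher and 28.7% lower in Fmr1 KO, and 36.2% and 29.1% in WT.

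Aqp4 was the clearest case. Its brightest probe set, 1425382_a_at, was higher in polyribosomal RNA as given above, while 1434449_at fell by 1.00 (adjusted p = 9.17e-06) in Fmr1 KO and by 0.85 (adjusted p = 7.64e-05) in WT. That probe set ranged over 8.28 to 9.08 in Fmr1 KO polyribosomal RNA, against 9.51 to 10.05 in Fmr1 KO total RNA, and over 8.62 to 9.42 in WT polyribosomal RNA, against 9.51 to 10.08 in WT total RNA. No polyribosomal array reached the total arrays of its genotype there. Another, dimmer probe set, 1447745_at, was also lower, at -0.63 in Fmr1 KO and -0.57 in WT. Lysate by lysate, 1425382_a_at minus 1434449_at was 1.48 ± 0.35 in Fmr1 KO and 1.30 ± 0.30 in WT (SD, n = 6 each), above 0 in 6 of 6 lysates of each genotype.

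Gfap was split the same way. Its probe set 1440142_s_at was higher by 1.44 in Fmr1 KO (adjusted p = 3.31e-06) and by 1.17 in WT (adjusted p = 8.45e-06), while 1426509_s_at was lower, at -0.46 in Fmr1 KO and -0.45 in WT. The probe set 1440142_s_at ranged over 5.10 to 5.71 in Fmr1 KO polyribosomal RNA, against a mean of 4.00 in Fmr1 KO total RNA, and over 4.73 to 5.65 in WT polyribosomal RNA, against 4.05 in WT total RNA. It thus lay at the dim limit in total RNA. For Slc1a3, 1426341_at had 0.26 in Fmr1 KO (adjusted p = 0.104) and was higher by 0.62 in WT (adjusted p = 0.00224), while 1452031_at was lower, at -0.44 in Fmr1 KO and -0.32 in WT. The difference between the opposed probe sets was 1.90 ± 0.66 in Fmr1 KO and 1.62 ± 0.48 in WT for Gfap, and 0.70 ± 0.36 in Fmr1 KO and 0.94 ± 0.17 in WT for Slc1a3 (SD, n = 6 each). All 6 contrasts, for 3 genes in 2 genotypes, were above 0 in 6 of 6 lysates. The pairs were chosen after their values were seen, as the probe sets of a gene with the highest and lowest difference. A positive mean contrast was thus fixed by the choice, and these contrasts are a description only.

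The remaining genes with several tested probe sets showed no opposed calls. Aldoc had a second probe set, 1424714_at, higher by 1.39 in Fmr1 KO and 1.45 in WT. Gja1 had 6 tested probe sets, of which 1415801_at was higher (0.32, adjusted p = 0.0494 in Fmr1 KO, and 0.46 in WT) and 5 were called in neither direction. The second Slc1a2 probe set, 1439940_at, had -0.12 in Fmr1 KO (adjusted p = 0.438) and was higher by 0.36 in WT. Averaging the probe sets of a gene therefore turned Aqp4 round, to -0.38 in Fmr1 KO and -0.32 in WT, and Gfap to 0.27 in Fmr1 KO and 0.14 in WT.

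**Figure D4:**
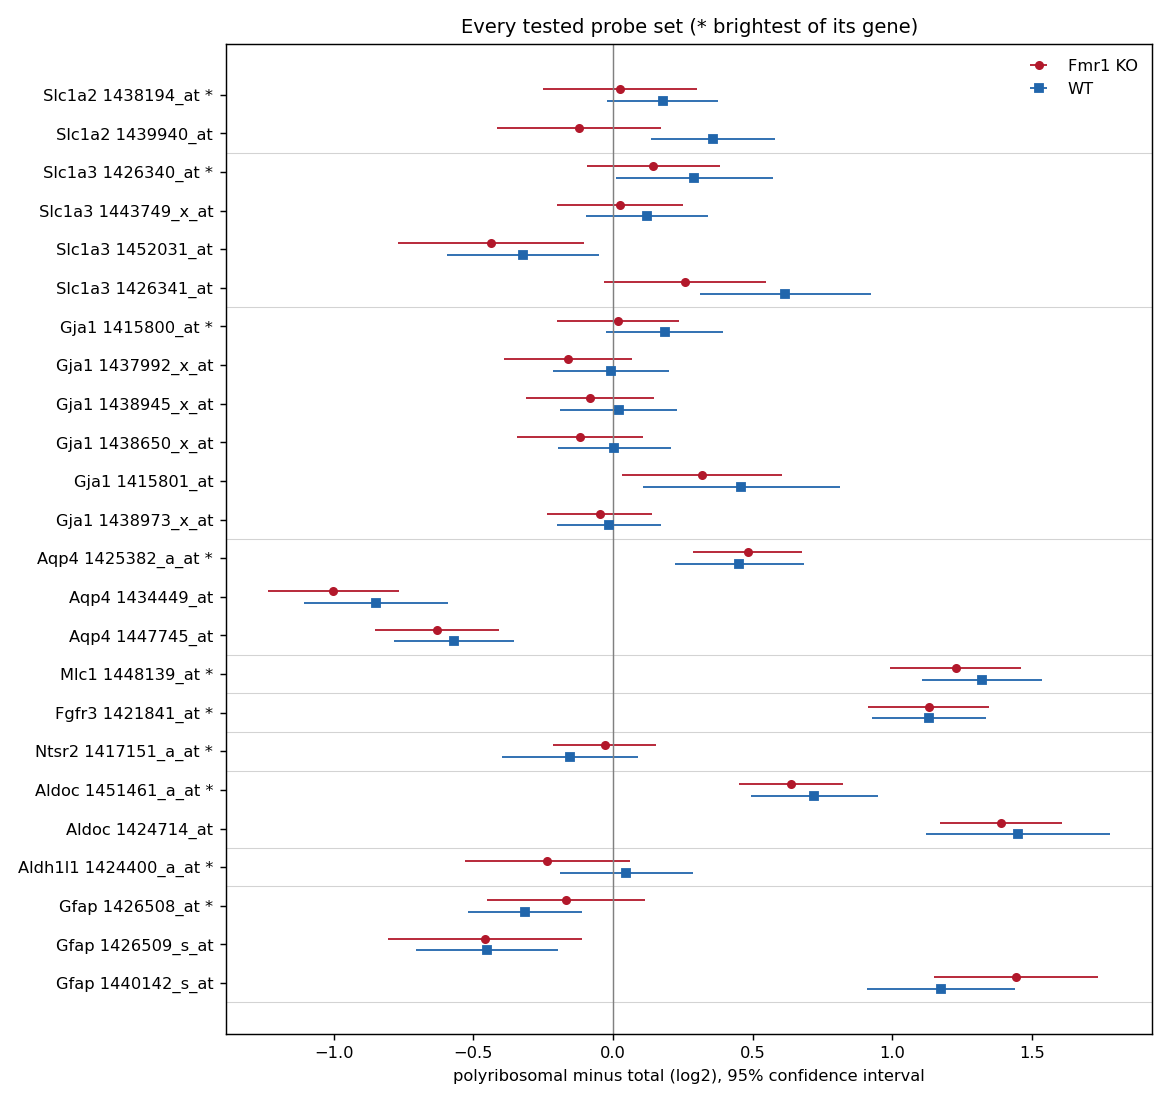
Polyribosomal minus total log2 difference with its 95% confidence interval for each of the 24 tested probe sets of the astrocyte genes, Fmr1 KO (circles) above WT (squares); an asterisk marks the brightest probe set of a gene. Probe sets of Aqp4, Gfap and Slc1a3 fall on both sides of 0, while those of Aldoc agree in sign.

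The second comparison asked whether astrocyte mRNAs differ when FMRP is missing. No astrocyte gene was called between Fmr1 KO and WT in either RNA kind. In polyribosomal RNA 0 of 10 genes and 0 of 24 probe sets passed in limma, where 0% of all genes tested were called higher and 0.0103% lower, and 0% and 0.017% of all probe sets. At an unadjusted p under 0.05 there were 0 of 10 genes (2.22% of all genes) and 1 of 24 probe sets (2.67% of all probe sets), Slc1a2 1439940_at at -0.59. In total RNA again 0 of 10 and 0 of 24 passed, where 0.0103% of all genes were called higher and 0.031% lower, and 0.0056% and 0.0336% of all probe sets. At an unadjusted p under 0.05 there were 2 of 10 genes (5.05% of all genes) and 3 of 24 probe sets (5% of all probe sets). For none of the 10 genes were the arrays of the 2 genotypes apart in either RNA kind. Of all genes, 0.0621% were apart and higher and 0.0414% apart and lower in polyribosomal RNA, and 0.114% and 0.206% in total RNA.

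In polyribosomal RNA the differences were small and mostly on 1 side. Fmr1 KO minus WT was -0.26 for Aldh1l1, -0.23 for Ntsr2 and -0.23 for Gja1, and -0.16 for Aldoc and for Slc1a3. It was -0.14 for Slc1a2, -0.12 for Aqp4, -0.10 for Fgfr3, -0.09 for Mlc1 and 0.05 for Gfap. The median was -0.15, with 9 of 10 below 0, where the median of all genes was 0.01 and 46.2% lay below 0. The members share arrays and move together between them, so 9 of 10 on 1 side is not 9 independent observations. The 95% half-widths of these differences ran over 0.23 to 0.45, and each of the 10 intervals held 0.

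The median depended on the arrays that stood apart. Without replicate 5, which holds the lowest Fmr1 KO polyribosomal array, it was -0.08 with 10 of 10 below 0, and without replicate 4, which holds the lowest WT polyribosomal array, it was -0.26 with 9 of 10 below 0. Neither setting gave a call. The list of 53 further astrocyte genes tested had a median of -0.08 with 36 below 0 and 0 called. That of 8 neuronal genes had -0.08 with 7 below 0, and that of 7 oligodendrocyte lineage genes -0.13 with 7 below 0. The list of 8 excitatory cortical neuron genes lay on the other side, with a median of 0.07 and 1 below 0. That of 11 interneuron genes had -0.002 with 6 below 0. The part of these cell types in the astrocyte values was not tested.

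In total RNA the differences were nearer to 0. Ntsr2 had the largest, with values of 3.66, 3.98 and 4.43 in Fmr1 KO (lowest, median, highest) and 3.97, 4.39 and 4.61 in WT, a difference of -0.36 (95% interval -0.65 to -0.06, unadjusted p = 0.0229, adjusted p = 0.951). The arrays of the genotypes overlapped. The Fmr1 KO array was below the WT array of the same replicate number in 6 of 6 cases, but the labels do not make these arrays pairs. Aqp4 had -0.15 (95% interval -0.30 to -0.01, unadjusted p = 0.0403, adjusted p = 0.982). Its other probe sets had -0.05 (1434449_at) and -0.07 (1447745_at), with intervals that held 0. The other 8 genes ran over -0.10 to 0.02 at their brightest probe sets. Among these Gja1 had -0.06, and its dimmer probe set 1415801_at had -0.27 (limma unadjusted p = 0.0248, adjusted p = 0.957). The median was -0.07 with 7 of 10 below 0, where the median of all genes was -0.01 and 55.4% lay below 0. With 1 replicate number left out the median ran over -0.11 (without replicate 3, 10 of 10 below 0) to -0.02 (without replicate 1, 6 of 10 below 0). The further astrocyte genes had a median of -0.06, with 45 of 54 below 0 and 0 called.

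**Figure D5:**
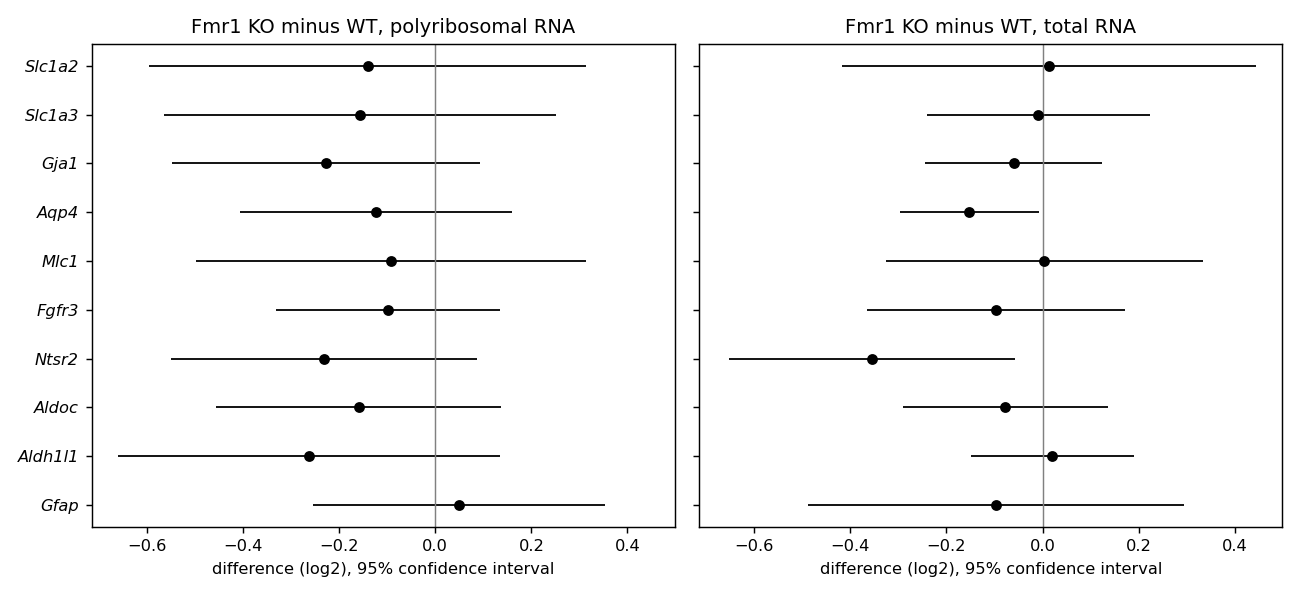
Fmr1 KO minus WT log2 difference with its 95% confidence interval for the brightest probe set of each astrocyte gene, in polyribosomal RNA (left) and total RNA (right), 6 arrays per genotype. The points lie between -0.26 and 0.05 in polyribosomal RNA and between -0.36 and 0.02 in total RNA, and only Aqp4 and Ntsr2 in total RNA have unadjusted intervals that leave out 0.

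The third comparison asked whether the loading on polyribosomes differed between genotypes, as the difference of the polyribosomal minus total values of 12 lysates. None of the 10 genes and none of the 24 probe sets passed in limma, where 0% of all genes were called in either direction, and 0 of 10 genes and 1 of 24 probe sets had an unadjusted p under 0.05 (2.34% of all genes and 2.38% of all probe sets). The values ran over -0.28 for Aldh1l1 (95% interval -0.67 to 0.11) to 0.15 for Gfap (95% interval -0.21 to 0.50). For the genes called higher in polyribosomal RNA at their brightest probe set they were -0.10 for Mlc1 (95% interval -0.41 to 0.22) and 0.00 for Fgfr3 (95% interval -0.29 to 0.29). They were -0.08 for Aldoc (95% interval -0.36 to 0.20) and 0.03 for Aqp4 (95% interval -0.26 to 0.32), whose other probe sets were lower in polyribosomal RNA. The 1 probe set with an unadjusted p under 0.05 was again Slc1a2 1439940_at, at -0.48.

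The wider astrocyte and pathway lists place the 10 genes among their relatives. Of 54 further astrocyte genes tested, 26 were higher, 11 lower and 17 not called in Fmr1 KO polyribosomal relative to total RNA, and 23, 13 and 18 in WT. The shares over all genes tested were 38.7% higher and 28.2% lower in Fmr1 KO, and 37.5% higher and 28.4% lower in WT. The highest in Fmr1 KO was Slc25a18, a mitochondrial glutamate carrier, at 1.20, followed by the transcriptional inhibitors Id3 at 0.97 and Id4 at 0.81 and by Ndrg2 at 0.81. In WT Slc25a18 at 1.01, the serine synthesis enzyme Phgdh at 1.00, the phospholipase Pla2g7 at 0.85 and Ndrg2 at 0.70 led. The largest falls were the metallothioneins, small metal-binding proteins with very short mRNAs: Mt3 had -3.13 in Fmr1 KO and -2.77 in WT, Mt1 had -2.11 in Fmr1 KO and -2.20 in WT, and Mt2 had -0.84 in Fmr1 KO and -1.19 in WT. The metalloproteinase inhibitor Timp4 followed with -0.70 in Fmr1 KO and -0.98 in WT.

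The pathway lists, which also hold neuronal genes, had calls in both directions at counts to be read against the same shares. Of 15 glutamate handling genes, 4 were higher and 4 lower in Fmr1 KO, and 5 higher and 4 lower in WT. The 4 higher in Fmr1 KO were Slc25a18 at 1.20, Got1 at 0.67, Slc25a22 at 0.57 and Glul. Glul, the glutamine synthetase that works after the transporters, was higher by 0.26 in Fmr1 KO and 0.35 in WT, while Slc38a2, a glutamine transporter, was lower, at -0.56 in Fmr1 KO and -0.51 in WT. The other 3 lower in both genotypes were Slc1a1 and the vesicular glutamate transporter genes of neurons, Slc17a7 and Slc17a6. Of 16 FGF pathway genes, 6 were higher and 3 lower in Fmr1 KO, and 6 higher and 5 lower in WT. Among them the FGF target Etv5 was higher by 0.70 in Fmr1 KO and 0.71 in WT, and the feedback inhibitor Spry4 by 0.36 in Fmr1 KO and 0.40 in WT. Flrt3, which binds FGF receptors, was lower, at -1.18 in Fmr1 KO and -1.02 in WT. Genes of similar name were split in Fmr1 KO. There Flrt2 was lower, at -0.93, and Flrt1 was higher, at 0.54. Spry2 was not called, at -0.02, and Spred1 was lower, at -0.28. Of 9 gap junction and endfoot genes, 3 were higher and 2 lower in Fmr1 KO, and 3 higher and 1 lower in WT, with the scaffold gene Tjp1 lower, at -0.82 in Fmr1 KO and -0.76 in WT. Between genotypes 0 genes of these lists were called in either RNA kind.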

How the data were processed

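RNA of 24 samples was measured on 24 arrays. The deposited values are log2 values made by the authors with GCRMA (background correction, normalization and probe set summary), per the submitters' processing notes. Its version, and whether the 24 arrays were normalized together, are not given in the sources used here, and the log2 scale was read from the values. Normalization between arrays removes shifts of the whole transcriptome, so differences are relative to other genes. The number of arrays limits the precision.

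Probe sets were named from the platform annotation, which gives 1 symbol for 34945 probe sets, several for 932 and none for 9160. Probe sets with a log2 value of at least 4 on at least 6 of the arrays compared entered the test, which was limma (version 3.58.1, R version 4.3.3; two-sided, Benjamini-Hochberg over all probe sets tested, threshold 0.05). Polyribosomal and total RNA were compared with the replicate number as the lysate block, and genotypes without a block. The script was tested on simulated data. The 10 genes were named in every comparison, each by its brightest probe set. From the further astrocyte list came counts and up to 4 of the largest called genes in each direction. From the pathway lists came counts and genes named as examples, not always the largest called. Relatives of the 10 genes were added, and the 5 genes most like the mean of the 10 were taken by r. The genes, lists and comparisons were chosen with earlier results of these data known. Alternatives changed the filter on dim probe sets, the normalization, the variance model, the probe set rule and the block, and left out each replicate number. The plots used Python 3.11.15 with matplotlib 3.10.9.

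Samples share replicate numbers across genotypes, and the study used littermates, but the labels do not say that the number marks the litter. With group means removed, Fmr1 KO and WT arrays of 1 number correlated at 0.133 to 0.532 in total RNA, over 0.1 in 6 of 6 pairs, and at -0.137 to 0.625 in polyribosomal RNA, over 0.1 in 4 of 6. Polyribosomal and total arrays of 1 number correlated at 0.156 to 0.474 in Fmr1 KO and at 0.021 to 0.525 in WT. Among Fmr1 KO total arrays, 5 of 6 correlated best with the WT total array of their own number. In polyribosomal RNA 2 of 6 did so. Between polyribosomal and total RNA the own number was best for 6 of 6 arrays in Fmr1 KO and 5 of 6 in WT.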

Additional observations from a re-analysis of the deposited data

Results flagged for a closer look

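In groups of 6 arrays or lysates, 60 sets of values of the 10 genes were checked for 1 value far from the others. Chance alone marks about 1 set in 20 here, and 4 were marked. Slc1a2 on Fmr1 KO total array 3 had a log2 value of 11.13, and the nearest of its group was 10.32. Slc1a3 on WT polyribosomal array 4 had 10.07, and the nearest was 10.81. Aldoc on the same array had 10.27, and the nearest was 10.89. The polyribosomal minus total difference of Aldoc in WT lysate 4 was 0.21, and the nearest was 0.77. The last 3 come from 1 array, on which 9 of the 10 genes lay below their group mean.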

How the results depend on the processing

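Each comparison was repeated under 13 alternatives. Of 130 counts of called genes, 126 stayed within 1.5 times the reported count. Of 641 values of single genes, 7 passed only under the alternative, 1 no longer passed, 4 turned round, and 2 that were called under neither setting changed sign by more than their SE. The other 627 stayed on their side of the threshold, and any that changed sign did so uncalled and within the SE. A value counts as turned round where it changed sign and was called as reported, under the alternative, or both. Taking the mean of the probe sets of a gene turned Aqp4 to -0.38 in Fmr1 KO (adjusted p = 0.00101) and -0.32 in WT, and Gfap to 0.27 in Fmr1 KO (adjusted p = 0.0470) and 0.14 in WT (adjusted p = 0.203), so that 1 gene was called lower in Fmr1 KO in place of 0. The opposed probe sets show where this comes from. With no replicate block, 0 genes were called lower in WT in place of 1. With 1 replicate number left out, WT genes called higher ran over 4 to 7 (7 without replicate 4) and Fmr1 KO genes called lower over 0 to 1 (Aldh1l1, -0.37, adjusted p = 0.0172, without replicate 2). Slc1a3 in WT also passed with arrays median-centred (0.33, adjusted p = 0.0367) and with a robust variance trend (adjusted p = 0.0414), and Slc1a2 in WT with the mean of its probe sets (0.27). The count of genes called between genotypes was 0 under every alternative run, including the replicate block. With 6 arrays a group, the 95% half-widths of the genotype differences ran over 0.14 to 0.45 log2 units, and Ntsr2, near the dim limit, has little room to fall.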
